A study of Mus musculus with 2 samples.

Results

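The genes described here belong to the programme of enteroendocrine cells, the hormone-secreting cells of the gut epithelium: 5 regulators of their fate (Neurog3, Neurod1, Pax6, Isl1 and Fev) and 5 proteins of their secretory granules (Chga, Chgb, Scg5, Pcsk1n and Cpe). They were chosen by name, and a gene was measured where a row of the expression table was annotated to its symbol alone. This held for 8 of the 10 genes, each with 1 row, out of 30772 genes with such a row. The 8 were 3 fate regulators and all 5 granule genes. The row that carries Neurod1 is also annotated to the neighbouring gene Cerkl and is not given, and Fev was not analysed here.

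Enteroendocrine cells arise from crypt progenitors in which the basic helix-loop-helix factor Neurog3 is switched on for a short time. Neurog3 activates later factors, among them Neurod1, and homeodomain proteins such as Pax6 and Isl1 then take part in the choice and upkeep of hormone-producing subtypes. The mature cell stores its peptides in dense-core granules, where chromogranins pack the cargo and peptidases cut prohormones to their active forms. The granule genes are shared with neurons and other endocrine cells, so they mark a secretory state rather than a single cell type.

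Both samples were intestinal stem cells of the small intestine of 8-week-old mice, sorted for the green fluorescent protein of the Lgr5GFP-CreERT2 allele, which both groups carry and which reports expression of the stem cell receptor gene Lgr5. One group was circPan3+/+ and the other circPan3-/-, which lacks a circular RNA made from the Pan3 gene. The sources used here do not say how the deletion was made, nor whether cells of several mice were pooled. Each genotype had 1 array (Affymetrix Clariom D mouse, total RNA), so there is no spread between samples, no error and no p-value for any difference below, and each difference compares these 2 arrays and not the genotypes. The number of arrays limits the precision.

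Values are log2 RMA signals, a base read from their range because the table states no unit, and every difference is circPan3-/- minus circPan3+/+. Over 13805 named protein-coding genes past a filter on low levels, the median difference was 0.36, so the circPan3-/- array reads higher in general. A control limit was set for each array at the 95th percentile of its negative control rows, 5.06 for circPan3+/+ and 5.56 for circPan3-/-, and a signal under its limit cannot be told from those controls. Exact values shared by several rows made up 69.1% of the circPan3+/+ column but 4.20% of the circPan3-/- column, and the sources do not say whether both arrays were processed alike. Of 9 stem cell markers measured, 4 were above the limits on both arrays. Lgr5 had 10.91 and 7.02 on the circPan3+/+ and circPan3-/- arrays and Olfm4 11.53 and 10.28. The list as a whole, however, had a median difference of 1.37, with 6 genes at least 2-fold higher and 2 lower. Of named genes, 9.74% were higher and 2.83% lower by that rule. Where values under a limit were replaced by it, the list had 3 higher and 2 lower, against 3.58% and 0.558% of named genes.

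The promoters of the 3 members with the widest upward differences, Chga, Chgb and Neurog3, are shown because these members were past 2-fold as deposited. RefSeq promoter sequences (GRCm38.p6) were matched for 9 of the 10 genes. Each line gives the 250 bases before the annotated transcription start, 5′ to 3′ on the strand of the gene. Capitals mark matches to CANNTG, the general form of the E-box bound by basic helix-loop-helix factors, and to TGACG on either strand, the core of the cyclic AMP response element. The windows are chr12:102554691-102554940 (plus strand) for Chga, chr2:132781392-132781641 (plus strand) for Chgb and chr10:62132840-62133089 (plus strand) for Neurog3.
Chga: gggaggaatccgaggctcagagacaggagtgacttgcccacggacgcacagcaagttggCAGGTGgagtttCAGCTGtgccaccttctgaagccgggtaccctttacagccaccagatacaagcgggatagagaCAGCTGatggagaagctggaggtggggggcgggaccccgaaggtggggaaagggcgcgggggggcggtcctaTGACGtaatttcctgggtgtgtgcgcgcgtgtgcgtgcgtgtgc
Chgb: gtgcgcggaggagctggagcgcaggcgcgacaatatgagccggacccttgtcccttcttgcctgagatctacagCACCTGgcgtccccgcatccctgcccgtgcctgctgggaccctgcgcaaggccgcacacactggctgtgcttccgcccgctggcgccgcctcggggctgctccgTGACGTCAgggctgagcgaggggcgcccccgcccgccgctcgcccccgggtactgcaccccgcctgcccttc
Neurog3: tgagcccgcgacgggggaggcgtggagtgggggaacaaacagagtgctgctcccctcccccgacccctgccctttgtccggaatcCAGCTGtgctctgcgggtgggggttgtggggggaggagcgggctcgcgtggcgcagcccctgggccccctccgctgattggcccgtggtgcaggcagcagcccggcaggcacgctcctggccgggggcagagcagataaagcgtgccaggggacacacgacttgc

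The Chga window held 3 matches to CANNTG and 1 to TGACG, which began 44 bases before the start. The Chgb window held 1 match to CANNTG and, 72 bases before the start, the whole palindrome TGACGTCA, which contains TGACG on both strands. The Neurog3 window held 1 match to CANNTG and none to TGACG. Among the 9 genes with a sequence, 8 had a match to CANNTG, 5 to TGACG and 2 (Chgb and Pax6) to TGACGTCA. The 9 genes had 10 windows, of which 2 were of Pax6, and a match in either of these counted. These counts are thus per gene, whereas the shares that follow are per window. For comparison, of 32851 mouse promoter windows of the same length 66.2% held CANNTG, 17.8% TGACG and 1.55% TGACGTCA. The narrower E-box CAGATG, searched on both strands, had no match in the 10 windows, against 14.4% of the mouse windows. All of these are letter matches, and no binding was measured.

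The chromogranin genes were the members with a signal above the control limits on both arrays, and both were over 2-fold higher in circPan3-/- cells. Chgb, which encodes chromogranin B, an acidic protein that helps to form and fill dense-core granules, gave 5.43 on the circPan3+/+ array against 6.82 on the circPan3-/- array. The difference was 1.39, or 2.62-fold, and exceeded that of 96.4% of named genes. Relative to the median of named genes it was 1.03, and 0.85 after loess on level, which is under 2-fold. Chga, which encodes chromogranin A, the general marker of endocrine cells, had 5.40 and 6.48. Its difference was 1.08, or 2.12-fold, above 92.3% of named genes. It was 0.73 relative to the median and 0.56 after loess, so the call of 2-fold for Chga depends on the general shift. The circPan3+/+ values of both genes stood just above the limit of 5.06.

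The other granule genes did not reach a 2-fold difference. Scg5, which encodes 7B2, the chaperone of the prohormone convertase PC2, had 3.32 and 3.94, a difference of 0.62. Pcsk1n, which encodes proSAAS, an inhibitor of the convertase PC1/3, had 3.82 and 4.42, a difference of 0.60. On neither array did Scg5 or Pcsk1n reach the control limit, so no fold is given, and beyond the median of named genes 0.27 and 0.24 remained. The circPan3+/+ value of Scg5 stood in 142 rows of the table.

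Cpe was the single member with a lower signal in circPan3-/- cells. It encodes carboxypeptidase E, which trims basic residues from peptides after the convertases have cut and is also made by neurons. Cpe gave 5.32 on the circPan3+/+ array against 5.05 on the circPan3-/- array, where it was under the limit, and differed by -0.27. Its circPan3+/+ value was itself below the circPan3-/- limit of 5.56, so no fold is given. The difference was -0.63 relative to the median of named genes and -0.75 after loess, and 11.0% of named genes lay below it.

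The fate regulators had signals in the range of the negative controls on both arrays, so their differences carry no fold. Neurog3 gave 2.80 on the circPan3+/+ array against 4.14 on the circPan3-/- array, and its difference of 1.34 exceeded that of 96.0% of named genes. On the negative control rows, 2.80 stood at percentile 70.6 and 4.14 at percentile 84.0, so the value moved within the control range. Relative to the median of named genes the Neurog3 difference was 0.98, and after loess 1.10. Isl1, a LIM homeodomain factor of hormone-producing cells, had 2.51 and 3.39, a difference of 0.88. Pax6, a paired-box factor with roles in several hormone lineages, had 2.66 and 3.30, a difference of 0.64. The circPan3+/+ value of Isl1 stood in 1579 rows of the table and that of Pax6 in 548, whereas that of Neurog3 stood in no other row. Differences of Isl1 and Pax6 therefore start from values that many rows share.

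**Figure D1:**
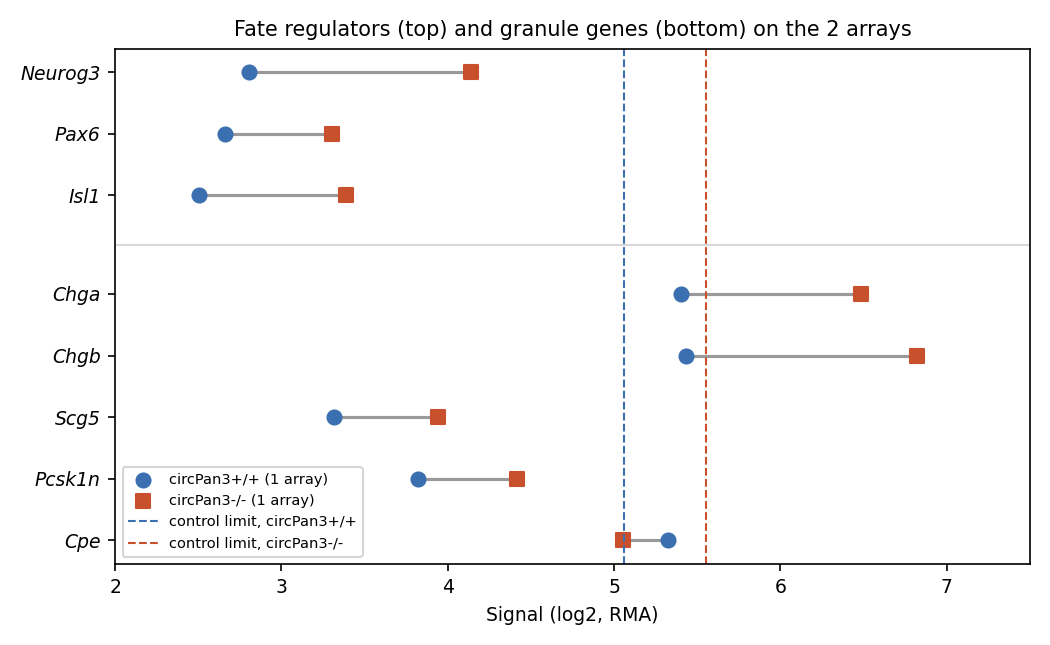
Log2 RMA signal (x axis) of the 8 measured members on the circPan3+/+ array (circles) and the circPan3-/- array (squares), 1 array each, with the control limits of 5.06 and 5.56 as dashed lines. Chga and Chgb lie above the limits on both arrays, the 3 fate regulators under them, and Cpe is the gene with a lower circPan3-/- value; levels of different genes are not comparable with each other.

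Of the 8 members, 7 were higher in circPan3-/- cells as deposited, against 78.4% of named genes, a share close to that background. At least 2-fold higher were 3 of the 8 (Chgb, Neurog3 and Chga), against 9.74% of named genes, and 0 were at least 2-fold lower, against 2.83%. The threshold is a rule of size and not a test. Relative to the median of named genes 1 member stayed past 2-fold, Chgb, against 3.90% of named genes, and after loess 1 member, Neurog3, against 3.38%. Where values under a control limit were replaced by that limit, 2 members were at least 2-fold higher, Chga and Chgb, against 3.58% of named genes. After quantile normalization 2 members, Chgb and Neurog3, were past 2-fold, against 4.32% of named genes, and at a threshold of 1.5-fold 7 members were higher, against 30.5%. No member was lower under any of these rules, for which the shares of named genes lower were 5.03% after centring, 5.07% after loess, 4.54% after quantile normalization, 5.61% at 1.5-fold and 0.558% with limits. All 7 members with a higher signal also lay above the median of named genes, and Cpe lay below it.

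**Figure D2:**
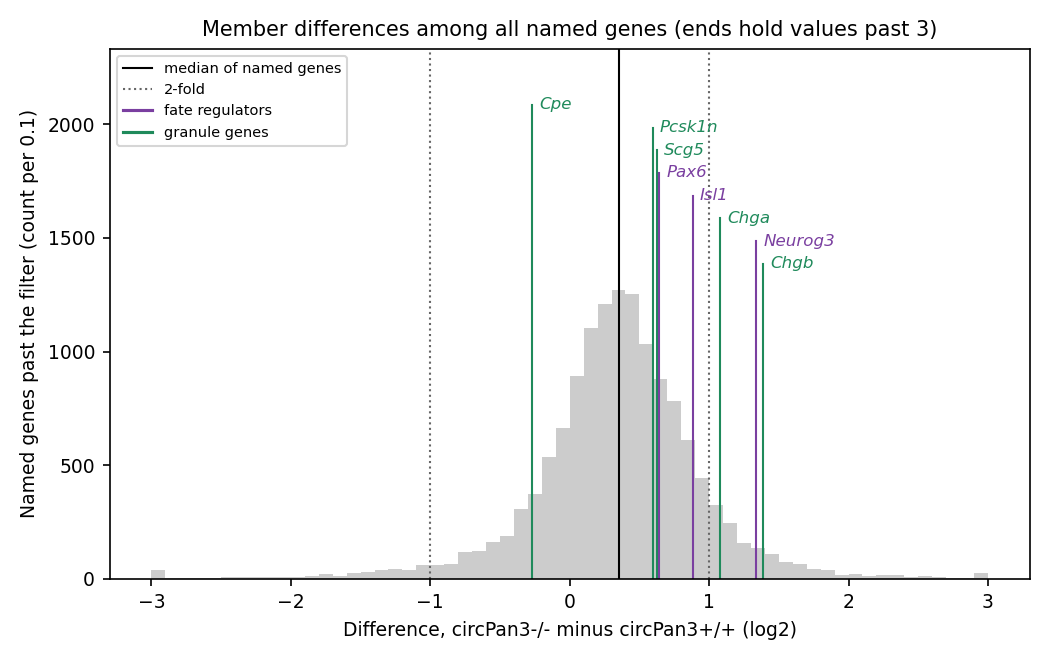
Histogram of differences (x axis, log2, circPan3-/- minus circPan3+/+) over 13805 named genes past the filter, in counts per bin of 0.1, with the 3 fate regulators and 5 granule genes as labelled lines. The black line is the median of 0.36, and 3 members lie past the upper dotted line of 2-fold.

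Set against each other, the regulators and the granule proteins did not separate. The median difference was 0.88 over the 3 fate regulators and 0.62 over the 5 granule genes, against 0.36 over named genes. The granule median minus the fate median was -0.26, but both medians are differences between signals under the control limits (Isl1 and Scg5), so this gap orders nothing. Over the 3 granule genes with a value above a limit the median was 1.08, but Cpe passed that rule through its circPan3+/+ value alone. The ranges overlapped: regulators ran from 0.64 to 1.34 and granule genes from -0.27 to 1.39. With 3 and 5 genes and 1 array per genotype, this gap has no error. Within the granule genes, the chromogranins stood at 1.08 and 1.39 and Scg5, Pcsk1n and Cpe at or below 0.62. The latter carry no fold, so this is no contrast by function. Among the further granule genes described below, the convertase gene Pcsk1 stood at 1.89 and the granins Scg2 and Scg3 at -0.39 and 0.26.

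**Figure D3:**
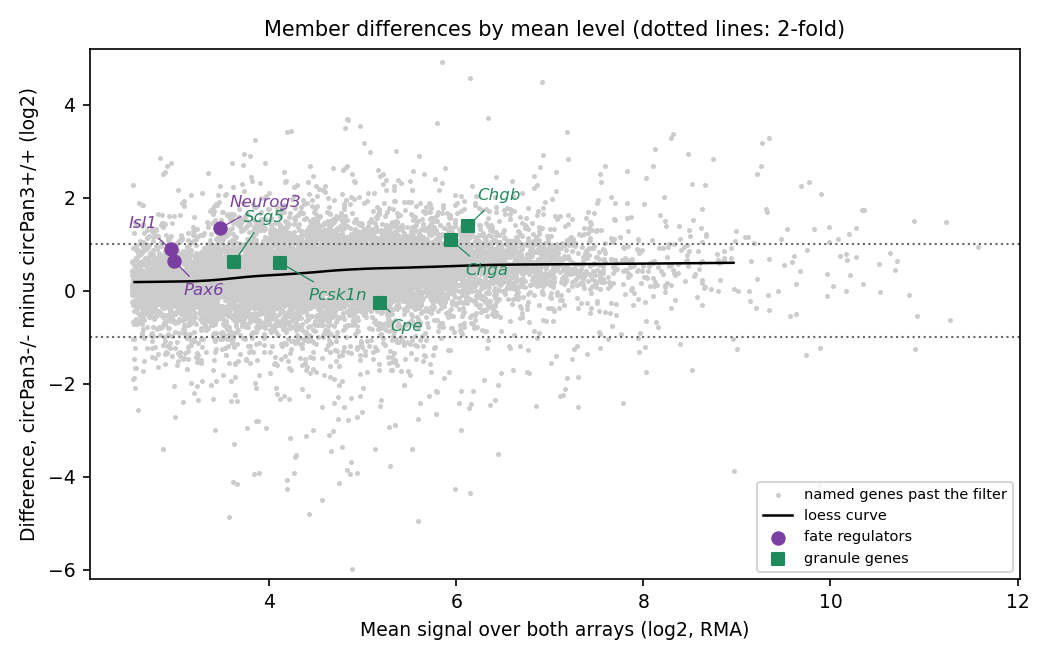
Difference (y axis, log2, circPan3-/- minus circPan3+/+) against mean signal of both arrays (x axis, log2 RMA) for 13805 named genes (grey) and the 8 members, with the loess curve in black. Chga and Chgb lie above the curve by 0.56 and 0.85 and Neurog3 by 1.10, while Cpe lies below it by 0.75.

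Of 22 other transcription factors of the endocrine and secretory lineages, 20 had a row of their own, with a median difference of 0.73. Above 0 lay 17 of the 20, close to the 78.4% of named genes, and 14 lay above the median of named genes. At least 2-fold higher were 4, against 9.74% of named genes, 0 were lower and 16 neither. With values under a limit replaced by it, 0 of the 20 were at least 2-fold higher, against 3.58% of named genes. Rfx6 and St18 did not pass the filter on level that the named genes passed. The 4 were Atoh1, the factor that commits progenitors to the secretory lineages, at 2.19, Rfx6, a factor downstream of Neurog3, at 2.02, Tox3 at 1.85 and St18 at 1.21. Rfx6 had 1.41 and 3.43 on the circPan3+/+ and circPan3-/- arrays, both under the limits, and its circPan3+/+ value stood in 1773 rows. Atoh1 had 3.44 and 5.63, with the circPan3-/- value above its limit, which gives a bound of at least 1.48-fold. Insm1, a zinc finger factor of endocrine differentiation, had a difference of 0.89, Nkx2-2, a homeodomain factor, 0.91 and Pax4, a paired-box factor, 0.58, all between values under the limits. Hhex at -0.22 and Lmx1a at -0.18 were lowest. Values under the limits on both arrays made up 17 of the 20. The other 3, named after their values were seen, were Atoh1, Foxa1 with 5.42 and 5.82, and Sox4 with 4.77 and 5.68.

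Further genes of the granule, prohormone processing and exocytosis had a median difference of 0.28, below the 0.36 of named genes. Of 30 listed, 29 had a row, of which 6 were at least 2-fold higher, against 9.74% of named genes, 0 lower and 23 neither. With values under a limit replaced by it, 0 were at least 2-fold higher, against 3.58% of named genes. The prohormone convertase gene Pcsk1 was highest at 1.89, with 2.13 and 4.02. It was followed by the priming factor gene Unc13b at 1.47, the granule membrane protein gene Ptprn2 at 1.33 and the active zone gene Rims2 at 1.31. Of the 29, 27 lay under the limits on both arrays, these 4 included, so none of those differences carries a fold. Snap25, which encodes a membrane fusion protein of neurons and endocrine cells, was lowest at -0.67, with 5.64 and 4.97. The secretogranin gene Scg2 followed at -0.39, with 5.65 and 5.25. Scg3, another granin, and Syp, a vesicle membrane protein gene, both stood at 0.26.

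The hormone list, which also holds the serotonin synthesis gene Tph1, had a median difference of 0.71 over 14 genes. In it 6 genes, Tph1 among them, were at least 2-fold higher and 1 lower, against 9.74% and 2.83% of named genes. Insl5, Ucn3 and Iapp did not pass the filter on level that the named genes passed, and the median over the other 11 was 1.02. With values under a limit replaced by it, 2 remained past 2-fold upward (Gcg and Sst) and 1 downward (Gal), against 3.58% and 0.558% of named genes. Of the 14 genes, 9 lay under the limits on both arrays. By difference the incretin gene Gip was highest of the list, with 3.37 and 6.0 on the circPan3+/+ and circPan3-/- arrays, a bound of at least 1.92-fold.

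Markers of other cell types differed between the arrays as well. Enteric neuron and glia genes, a group that shares granule genes with endocrine cells, had a median of -0.60 over 12 genes, with 9 below 0, and their summed linear signal was 493 in circPan3+/+ and 192 in circPan3-/- cells. Without Vip the sums were 220 and 143 and the median was -0.55. The neuropeptide gene Vip had 8.09 and 5.61 and Prph, a neuronal filament gene, 4.87 and 3.46. Of these 12 markers 10 lay under the limits on both arrays, and Vip was the one above both. Cpe, which carries no fold, moved in the same direction as this list. So did Scg2 and Snap25, the lowest of the further granule and exocytosis genes, with bounds of at least 1.07-fold and 1.06-fold lower. They are cited here as the lowest, so their direction adds nothing. The 7 higher members moved in the opposite direction, and 22 of the 29 further granule and exocytosis genes lay above 0, against 78.4% of named genes. The part of neuronal RNA in the Cpe difference was not tested. The 10 goblet cell genes had a median of 2.75, with 10 of them at least 2-fold higher (9.74% of named genes were), and a summed signal of 1256 and 6176. Paneth cell markers had a median of 1.89 over 7, with 6 at least 2-fold higher (9.74% of named genes were) and a summed signal of 2329 and 8687. With values under a limit replaced by it, 9 goblet and 6 Paneth genes were at least 2-fold higher, against 3.58% of named genes. Tuft cell markers had a median of 0.87 over 9, with 3 at least 2-fold higher as deposited, against 9.74% of named genes. All 9 lay under the limits on both arrays, and 0 were at least 2-fold higher with values under a limit replaced by it, against 3.58% of named genes. Myeloid markers had a median of -2.16 over 10, with 9 at least 2-fold lower, against 2.83% of named genes. All 9 were under the limit on the circPan3-/- array. With values under a limit replaced by it, 3 were at least 2-fold lower, against 0.558% of named genes. Chga and Chgb, the members above the limits on both arrays, were thus higher on the array where goblet and Paneth markers also were. In sorted bulk RNA, a change in the number of cells of a type and in the RNA per cell cannot be told apart, and the part of either in these differences was not tested.

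**Figure D4:**
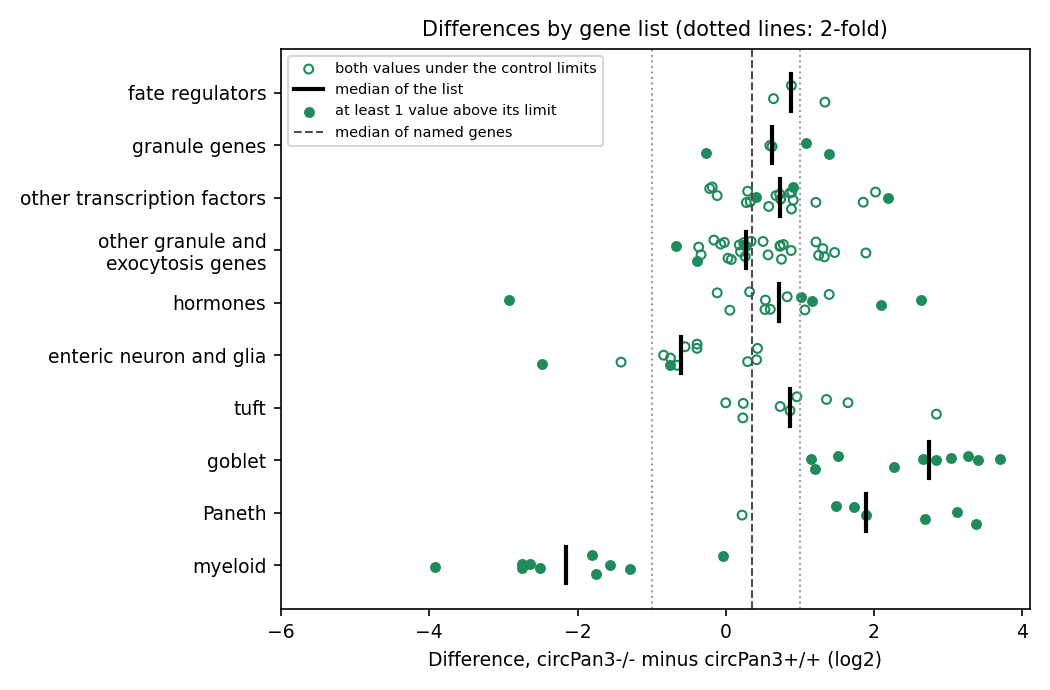
Difference (x axis, log2, circPan3-/- minus circPan3+/+) of each measured gene by list, with open circles where both values lay under the control limits, a black bar at the median of each list and a dashed line at the median of named genes, 0.36. The fate regulators (0.88), granule genes (0.62), other transcription factors (0.73), hormones (0.71) and tuft genes (0.87) have medians above that line. Paneth genes at 1.89 and goblet genes at 2.75 lie further to the right. Other granule and exocytosis genes (0.28), enteric neuron genes (-0.60) and myeloid genes (-2.16) lie to the left of it.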

How the data were processed

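Total RNA of 2 sorted stem cell samples was measured on 1 array each. The deposited values are log2 signals per transcript cluster, made by the authors with Affymetrix Power Tools and RMA, per the submitters' processing notes; no version or genome build is stated there. Of 72688 rows, 31250 were named from the platform annotation with 1 current symbol (RefSeq, GRCm38.p6) and 1500 with several. The brightest row stood for a gene. Named genes are protein-coding, without predicted models, and number 18323; the filter kept the 13805 with a mean level of 2.53 or more, which is the median over all rows.

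The members and lists were chosen with earlier results of these data known. With 1 array per genotype no test was run, and genes were described by a 2-fold rule. Where the dimmer value lay under its control limit, the fold is a bound, taken between the limit and the brighter value, if any. The genes named were the 10 members, up to 4 furthest above and 2 furthest below in each wider list, fixed examples (Insm1, Rfx6, Pax4, Nkx2-2, Scg2, Scg3, Pcsk1, Pcsk2 and Syp, of which Pcsk2 was not analysed here; a further one is not reported here) and up to 2 of each other list. Since 2 arrays define no pattern, no genes of like pattern are named. Alternatives were centring, loess (statsmodels 0.14.6, span 0.3), quantile normalization, averaging a symbol's rows, list means, a 1.5-fold threshold, other filters and the control limits. The scaling functions were tested on simulated data.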

Additional observations from a re-analysis of the deposited data

How the results depend on the processing

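No paired analysis was possible because each genotype has 1 array, and no sample can be left out. With no spread between samples, any change in the second decimal of a median is counted here as a move. Each of the 8 measured members kept its direction under centring, loess, quantile normalization and averaging of a symbol's rows (32 of 32 values). Each member has 1 row, so the averaging could not change its value. Members under the control limits on both arrays, and Cpe, carry no fold, so a kept direction says little for them. Every median and count named here was within 1.5-fold or equal under that averaging.

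The median of the fate regulators was 0.53 after centring, 0.69 after loess, 0.67 after quantile normalization and 0.96 as a mean; none had a value above a control limit, so that alternative gave no value. The median of the granule genes was 0.27 after centring, 0.36 after loess, 0.33 after quantile normalization, 0.68 as a mean and 1.08 over the 3 genes with a value above a limit. The granule median minus the fate median was -0.33 after loess, -0.35 after quantile normalization and -0.27 from means. The wider transcription factor list had 0.38 after centring, 0.42 after loess, 0.43 after quantile normalization, 0.76 as a mean, 0.70 past the filter on level and 0.91 over genes with a value above a limit. The wider granule list had -0.079 after centring, 0.0056 after loess, -0.014 after quantile normalization and 0.46 as a mean, so its sign is not settled. Its genes with a value above a limit, Snap25 and Scg2, had -0.53, but both passed through the circPan3+/+ array alone. Cpe passed through the circPan3+/+ array alone as well, and Atoh1 and Sox4 through the circPan3-/- array alone. That rule favours the array where a gene is high, so medians under it inform neither sign nor size.

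Members at least 2-fold higher numbered 1 after centring, 1 after loess and 7 at 1.5-fold (30.5% of named genes), and members lower stayed at 0 under each of these. Named genes at least 2-fold higher numbered 538 after centring, 467 after loess, 597 after quantile normalization, 4208 at 1.5-fold and 494 with control limits, against 1344 as deposited. Those lower numbered 695, 700, 627, 775 and 77 in the same order, against 390. The share of higher calls therefore depends on scaling. Signals under the control limits, 5 of the 8 members on both arrays, limit what can be read from sizes.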

Other observations

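Among peptide genes, Gal and Vip were at least 2-fold lower, while Tac1 and Nts, which enteric neurons can also express, stood at 0.60 and 0.83 between values under the control limits. Gal, which encodes the neuropeptide galanin, was the 1 gene of the hormone list at least 2-fold lower, with 6.75 and 3.82 on the circPan3+/+ and circPan3-/- arrays. It differed by -2.92, a bound of at least 2.28-fold. Vip, a neuropeptide gene from the enteric neuron list, was 5.59-fold lower, with signals above the limits on both arrays. Gcg, which encodes proglucagon, had 4.0 and 6.10, a bound of at least 2.06-fold higher. Sst, which encodes somatostatin of D cells, had 5.86 and 6.88, a difference of 1.02 or 2.03-fold, and was the 1 hormone gene of the 14 with a signal above the limits on both arrays. Sst thus resembled Chga in size, and like Chga it was under 2-fold relative to the median of named genes, at 0.66. Every gene in this paragraph was chosen after its values were seen.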
